A study of Homo sapiens with 6 samples.

Results

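Aminoacyl-tRNA synthetases, the enzymes that attach each amino acid to its transfer RNA, were examined in ME180 cells, an established human cervical epidermoid carcinoma line. The members were 38 genes, found by symbol among the 18358 genes of the deposited table: 19 cytosolic synthetase genes (names ending in 1, with FARSA and FARSB), 16 mitochondrial synthetase genes (names ending in 2), and 3 genes for scaffold proteins of the multisynthetase complex (AIMP1, AIMP2 and EEF1E1). In 3 libraries the cells carried a guide construct directed at VPS13C and are labelled as a VPS13C knockout. In the other 3 libraries they carried an empty vector. All 6 samples had received cisplatin, a DNA-crosslinking drug, at 2 µM for 48 h, so the drug itself was not a variable. The labels used here give neither the guide nor whether the knockout cells were a clone or a pool, and do not say that the replicates were separate cultures. The p-values therefore cover the variation among 3 libraries a group, part or all of which may be technical.

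Each tRNA is charged by the synthetase for its amino acid, and the charged tRNA then delivers that amino acid to the ribosome. Cytosol and mitochondria mostly use separate enzymes, all encoded in the nucleus, but KARS1 and GARS1 each supply both compartments. Some cytosolic synthetases are held with the scaffold proteins in the multisynthetase complex, and the others act outside it. Uncharged tRNA activates the kinase GCN2, phosphorylation of eIF2 then favours translation of the transcription factor ATF4, and several cytosolic synthetase genes are known ATF4 targets. ATF4 pairs with C/EBP proteins at a composite DNA element.

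The promoter windows that carry the core of that element are shown because they divide the cytosolic genes in a way that does not use their expression. In RefSeq windows of 300 bases around gene starts (GRCh38.p14), found for 33 of the 38 members, the letters TGATGNAA were searched on both strands. Of the cytosolic genes with a window, 7 of 16 held the core: AARS1, CARS1, GARS1, IARS1, MARS1, NARS1 and TARS1. YARS2 was the single mitochondrial gene with it. Sites of 30 bases follow from 4 of these windows, those of the genes called lower in knockout cells by the threshold given below. The sites of MARS1, NARS1, TARS1 and YARS2, which were not called, are not printed. Sites are written 5′ to 3′ on the strand of the gene, with the core in capitals. Here the core lies on the opposite strand and is seen as its reverse complement.
AARS1, chr16:70289675-70289704, minus strand: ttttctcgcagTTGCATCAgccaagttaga
CARS1, chr11:3057407-3057436, minus strand: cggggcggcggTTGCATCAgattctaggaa
GARS1, chr7:30594834-30594863, plus strand: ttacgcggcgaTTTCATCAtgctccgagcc
IARS1, chr9:92293692-92293721, minus strand: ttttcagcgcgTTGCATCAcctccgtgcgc

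Total counts ran from 14774065 to 15799149 per library, and member counts from 87 to 8321. Of all genes, 13717 passed the filter on low counts and were tested with edgeR's quasi-likelihood test, and all 38 members were among them. A gene was called when its Benjamini-Hochberg adjusted p over all tested genes was under 0.05. Levels are counts scaled to library size (CPM), changes are log2 fold changes of knockout over vector libraries with their standard error (SE), and the median change over all tested genes was 0.004. The targeted gene VPS13C had 28.6, 18.6 and 23.7 CPM in knockout libraries, against 48.1, 30.1 and 35.0 CPM in vector libraries. These groups did not overlap, but the change of -0.67 ± 0.22 (SE) was not called (edgeR adjusted p = 0.0513). Squamous epithelium markers summed to between 17938 and 21742 CPM in knockout libraries, against 10682 to 13759 CPM in vector libraries, with 4 of 6 called higher (KRT5, KRT14, KRT6A and DSG3). Markers of fibroblasts summed to 47.0 to 50.2 CPM in knockout and 36.9 to 44.1 CPM in vector libraries (DCN called higher), those of leukocytes to 41.0 to 45.8 CPM in knockout and 71.6 to 85.2 CPM in vector libraries (CD68 called lower), and those of endothelium to 21.7 to 24.7 CPM in knockout and 7.80 to 8.13 CPM in vector libraries (VWF called higher, CDH5 lower). No marker was at 0 in all libraries, 2 of the 4 fibroblast, 3 of the 4 leukocyte and 1 of the 3 endothelial markers in the table were under 1 CPM in each library, and the part of these levels in the results was not tested.

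Cytosolic synthetases were mostly lower in VPS13C knockout cells than in vector cells, and mitochondrial synthetases were centred near no change. Of the 38 members, 15 were called (39.5%), where 35.1% of all tested genes were called, so the share called was near the background. The members called lower were 13 (34.2%, beside 17.4% of all genes), and those called higher were 2 (5.26%, beside 17.8%). Among cytosolic genes 8 of 19 were called lower and 1, QARS1, was called higher, with a median change of -0.33. KARS1 and GARS1, which supply both compartments, were counted as cytosolic throughout, and both were among these 8. Of the mitochondrial genes 3 of 16 were called lower and 1, HARS2, higher, with a median of -0.05. AIMP2 and EEF1E1 were called lower among the 3 scaffold genes.

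Knockout and vector values were fully separated for 22 members, 19 lower and 3 higher, while 48.5% of all tested genes had groups that did not overlap, 24.0% lower and 24.5% higher. Of these 22, 14 were cytosolic (13 lower), 6 mitochondrial (4 lower) and 2 scaffold genes, and 30 of the 38 members had a negative change. In bulk RNA, a smaller share of cells with an RNA and less of it per cell cannot be told apart. The number of cytosolic genes called lower was 5 without knockout replicate 3 and 5 without vector replicate 3. It was 13 when each library's trend on gene length was removed. The shares of all genes then called in either direction were 21.8%, 22.3% and 47.1%, so they are not shares called lower. Leaving out knockout replicates 1 and 2 left 26.5% and 35.0% of all genes called, and leaving out vector replicates 1 and 2 left 36.3% and 26.5%. The cytosolic median stayed between -0.38 and -0.29 when single libraries were left out, and the mitochondrial median was -0.11 without knockout replicate 3.

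**Figure D1:**
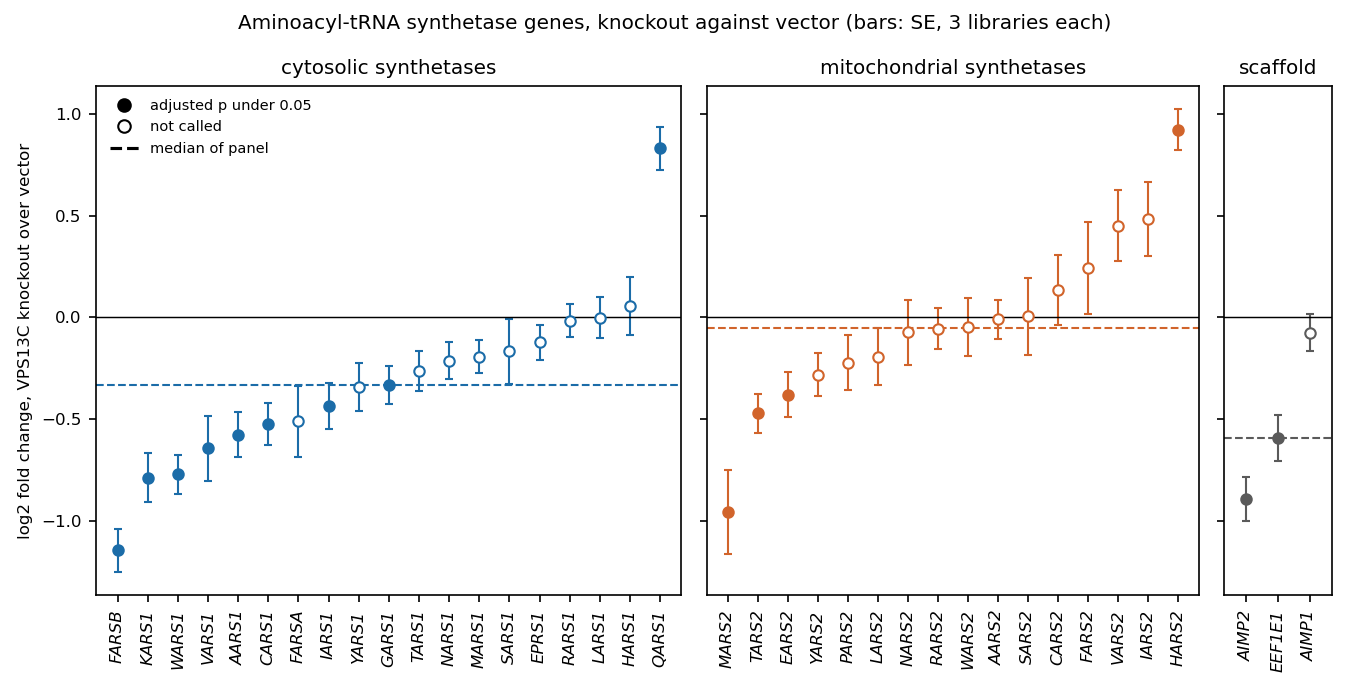
Log2 fold change of VPS13C knockout over vector (y axis) for each cytosolic, mitochondrial and scaffold gene, with its standard error, from 3 libraries a group; filled points have an edgeR adjusted p under 0.05 and dashed lines are panel medians. The cytosolic panel has its median at -0.33 with QARS1 alone among the called genes above 0, and the mitochondrial panel spans -0.96 to 0.92 around -0.05.

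The largest fall among the members was in FARSB, which encodes the beta subunit of the tetrameric phenylalanyl-tRNA synthetase. FARSB had 35.9, 34.0 and 37.3 CPM in knockout libraries, against 72.6, 85.3 and 79.8 CPM in vector libraries. All vector values were above all knockout values, and the change was -1.15 ± 0.11 (SE; edgeR adjusted p = 0.0003), a level 0.452 times that of the vector cells. Its partner FARSA, the alpha subunit, had 97.2, 139 and 108 CPM in knockout libraries and 134, 180 and 176 CPM in vector libraries. The second knockout library lay above the first vector library, and FARSA was not called at -0.51 ± 0.17 (SE; edgeR adjusted p = 0.0575). FARS2, the mitochondrial phenylalanyl enzyme, acts as a monomer and had a change of 0.24 ± 0.23 (SE), not called.

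WARS1, the cytosolic tryptophanyl enzyme, is known for its induction by interferon-gamma. WARS1 had 269, 262 and 247 CPM in knockout libraries, against 420, 442 and 467 CPM in vector libraries. The groups were far apart relative to their spread, with means of 259 ± 11.3 CPM in knockout and 443 ± 23.5 CPM in vector cells (SD, n = 3 each) and a change of -0.77 ± 0.10 (SE; edgeR adjusted p = 0.0010). Its RefSeq window held the core of an interferon response element (GAAA, any 2 bases, then GAAA, on either strand), which was found in 3.57% of all 35116 windows and, among the members, also in EARS2. The WARS1 site is shown with this core in capitals.
WARS1, chr14:100375383-100375412, minus strand: tttcagaaggGAAACTGAAAgaaagagggg
Of 14 tested genes of an interferon-gamma response list, 3 were called (21.4%, beside 35.1% of all tested genes), 2 higher and 1 lower, and 10 had a positive change (median 0.14). GBP2, an interferon-induced GTPase, was at 6.93 ± 0.557 CPM in knockout cells and 0.583 ± 0.123 CPM in vector cells (SD, n = 3 each), and GBP1 rose by 0.74 ± 0.20 (SE) on the log2 scale. The adhesion molecule ICAM1 fell by 1.30 ± 0.12 (SE) on the log2 scale.

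KARS1 encodes the lysyl enzyme of both compartments and sits in the multisynthetase complex. KARS1 had 128, 159 and 131 CPM in knockout libraries, against 220, 260 and 242 CPM in vector libraries. The groups did not overlap, and the change of -0.79 ± 0.12 (SE; edgeR adjusted p = 0.0026) was a fall of 42.1%. The alanyl gene AARS1, whose enzyme also hydrolyses mischarged tRNA, had 281, 304 and 276 CPM in knockout libraries, against 378, 456 and 451 CPM in vector libraries. All knockout values were lower, and AARS1 fell by 0.58 ± 0.11 (SE) on the log2 scale (edgeR adjusted p = 0.0068). CARS1, the cysteinyl gene, had 80.9, 85.0 and 78.7 CPM in knockout libraries and 105, 123 and 124 CPM in vector libraries, again with no overlap, and fell by 30.5%. The change in CARS1 was -0.52 ± 0.10 (SE; edgeR adjusted p = 0.0071).

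A further 3 cytosolic genes were called lower with smaller margins. IARS1, the isoleucyl enzyme of the complex, had 357, 307 and 349 CPM in knockout libraries, against 498, 432 and 442 CPM in vector libraries, a change of -0.44 ± 0.11 (SE). GARS1, which supplies glycyl-tRNA synthetase to both compartments, had 242, 250 and 247 CPM in knockout libraries, against 288, 321 and 322 CPM in vector libraries, a change of -0.33 ± 0.09 (SE). The valyl gene VARS1 had 32.8, 39.8 and 34.1 CPM in knockout libraries, against 44.9, 64.4 and 57.9 CPM in vector libraries, a change of -0.65 ± 0.16 (SE). In all 3 genes the groups did not overlap, and the edgeR adjusted p was 0.0203 for IARS1, 0.0275 for GARS1 and 0.0184 for VARS1. These calls were lost when some single libraries were left out. The edgeR adjusted p of IARS1 was 0.069 without knockout replicate 3 and 0.0645 without vector replicate 3. For GARS1 it was 0.0725 and 0.0884 without knockout replicates 1 and 3, and 0.0949 and 0.119 without vector replicates 2 and 3. For VARS1 the same 4 omissions gave edgeR adjusted p of 0.0557, 0.0708, 0.056 and 0.0691.

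QARS1 was the exception among the cytosolic genes. It encodes glutaminyl-tRNA synthetase, part of the multisynthetase complex; human mitochondria instead make glutaminyl-tRNA by amidating tRNA that was first charged with glutamate by EARS2. QARS1 had 209, 238 and 216 CPM in knockout libraries, against 112, 131 and 129 CPM in vector libraries. Every knockout library was above every vector library, and QARS1 was 1.78 times as high in knockout cells, a change of 0.83 ± 0.10 (SE; edgeR adjusted p = 0.0011).

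Another 5 cytosolic genes had groups that did not overlap, all lower in knockout cells, and were not called. EPRS1, a fused glutamyl-prolyl enzyme, averaged 129 ± 6.82 CPM in knockout and 141 ± 1.28 CPM in vector cells (SD, n = 3 each). The methionyl gene MARS1 averaged 168 ± 5.34 CPM in knockout and 192 ± 3.44 CPM in vector cells, and the asparaginyl gene NARS1 223 ± 9.31 CPM in knockout and 259 ± 12.6 CPM in vector cells. The threonyl gene TARS1 averaged 321 ± 17.8 CPM in knockout and 385 ± 22.2 CPM in vector cells, and the tyrosyl gene YARS1 200.4 ± 15.3 CPM in knockout and 254 ± 28.4 CPM in vector cells. Their changes lay between -0.34 for YARS1 and -0.12 for EPRS1, and their edgeR adjusted p between 0.0576 and 0.312. YARS1 passed the threshold without knockout replicate 2 (edgeR adjusted p = 0.0416) and without vector replicate 1 (0.0159), as did FARSA (0.0146 and 0.0169). The remaining HARS1, LARS1, RARS1 and SARS1 overlapped between groups, with changes from -0.17 for SARS1 to 0.05 for HARS1.

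**Figure D2:**
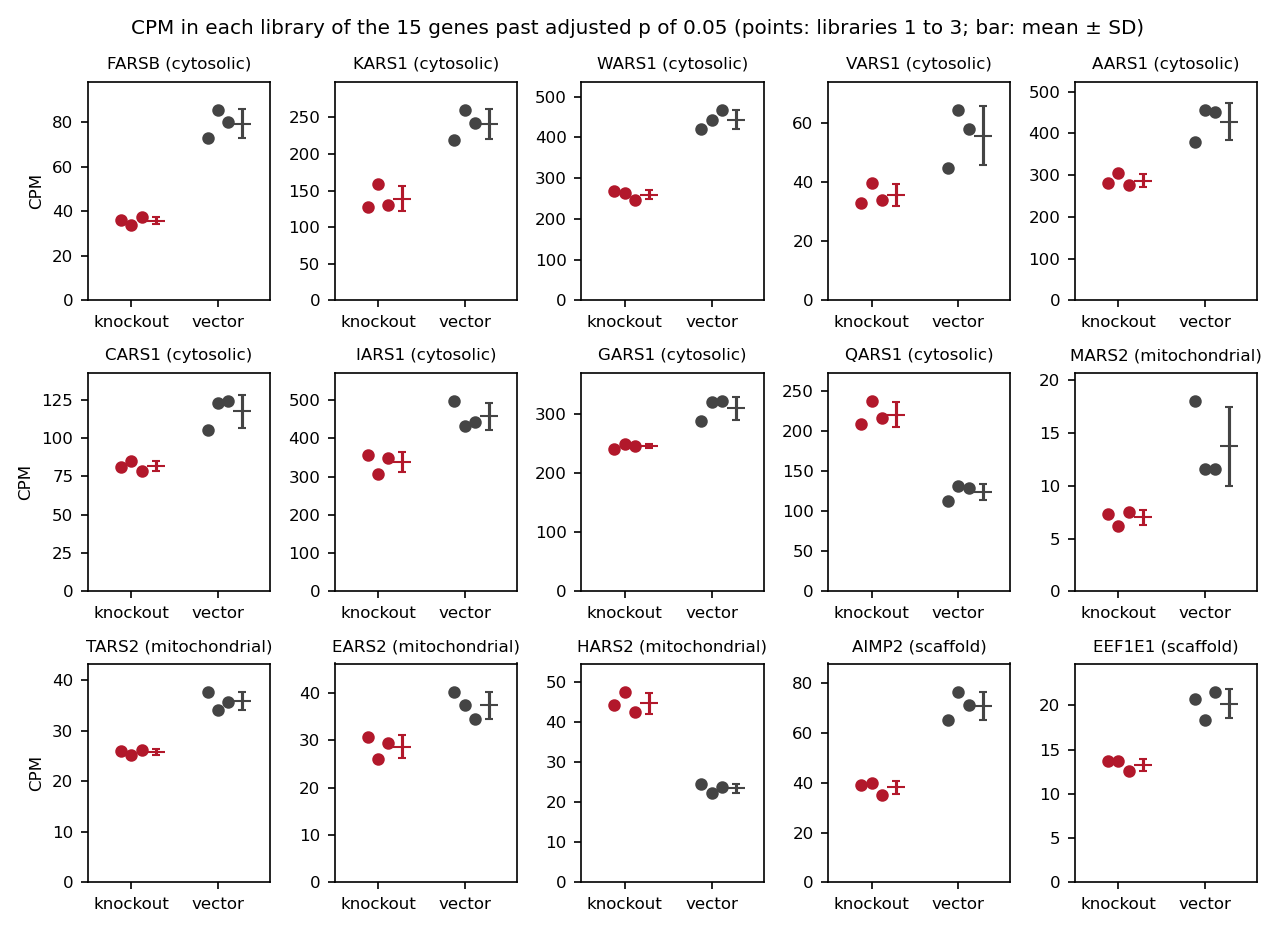
CPM (y axis, from 0) in each of the 3 knockout and 3 vector libraries for the 15 called members, with group mean and SD beside the points. In 13 panels all knockout points lie below all vector points, and in QARS1 and HARS2 they lie above.

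Mitochondrial genes moved in both directions. HARS2, the mitochondrial histidyl enzyme, had 44.1, 47.4 and 42.3 CPM in knockout libraries, against 24.5, 22.2 and 23.8 CPM in vector libraries. Its groups were well separated, and HARS2 rose by 0.92 ± 0.10 (SE) on the log2 scale (edgeR adjusted p = 0.0006), the largest rise among the members. MARS2, the mitochondrial methionyl enzyme, had 7.36, 6.17 and 7.50 CPM in knockout libraries, against 18.0, 11.6 and 11.5 CPM in vector libraries. The first vector library stood above the other two, the groups did not overlap, and the change was -0.96 ± 0.21 (SE; edgeR adjusted p = 0.0111). MARS2 kept its call in each alternative, at a change between -1.07 and -0.72.

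TARS2, the mitochondrial threonyl enzyme, had 26.1, 25.2 and 26.1 CPM in knockout libraries, against 37.7, 34.1 and 35.7 CPM in vector libraries. The libraries of each group lay close together and did not overlap, with a fall of 27.9% (log2 change -0.47 ± 0.10 SE; edgeR adjusted p = 0.0082). EARS2, the mitochondrial glutamyl enzyme, had 30.5, 26.0 and 29.4 CPM in knockout libraries, against 40.1, 37.3 and 34.5 CPM in vector libraries. EARS2 was called at -0.38 ± 0.11 (SE; edgeR adjusted p = 0.0351), but the call was lost whichever library was left out. The edgeR adjusted p was then 0.0609, 0.0794 and 0.101 without knockout replicates 1 to 3, and 0.0691, 0.0897 and 0.0669 without vector replicates 1 to 3.

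VARS2 and YARS2 had groups that did not overlap and were not called. VARS2, the valyl enzyme, averaged 22.9 ± 4.06 CPM in knockout and 16.7 ± 2.73 CPM in vector cells (SD, n = 3 each), and the tyrosyl enzyme YARS2 31.6 ± 2.30 CPM in knockout and 38.5 ± 2.19 CPM in vector cells. The isoleucyl gene IARS2 averaged 98.4 ± 15.8 CPM in knockout and 70.3 ± 14.6 CPM in vector cells, with overlapping groups. IARS2 missed the threshold at 0.48 ± 0.18 (SE; edgeR adjusted p = 0.0807), and passed it without knockout replicate 2 (edgeR adjusted p = 0.0303) or vector replicate 1 (0.0152), which took the number of mitochondrial genes called higher to 2. The other 9 mitochondrial genes overlapped between groups, with changes from -0.22 for PARS2 to 0.24 for FARS2.

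AIMP2 and EEF1E1 are scaffold proteins: AIMP2 binds KARS1 and holds the complex together, and EEF1E1 (also called AIMP3) docks MARS1. AIMP2 had 39.2, 40.1 and 35.2 CPM in knockout libraries, against 65.2, 76.4 and 71.2 CPM in vector libraries. EEF1E1 had 13.7, 13.8 and 12.5 CPM in knockout libraries, against 20.7, 18.3 and 21.5 CPM in vector libraries. Neither gene's groups overlapped, with changes of -0.89 ± 0.11 (SE; edgeR adjusted p = 0.0010) for AIMP2 and -0.60 ± 0.11 (SE; edgeR adjusted p = 0.0061) for EEF1E1. AIMP1 averaged 69.6 ± 1.55 CPM in knockout and 73.4 ± 3.62 CPM in vector cells (SD, n = 3 each), with overlap and no call. Of the 7 synthetases in the complex, 2 were called lower and 1 higher, 4 had non-overlapping groups lower in knockout cells, and 6 had a negative change (median -0.12). Of the 12 cytosolic synthetases outside it, 6 were called lower and 0 higher, 9 had non-overlapping groups lower in knockout cells, and 11 had a negative change (median -0.43). All tested genes were called lower in 17.4% and higher in 17.8% of cases, and the contrast between the 2 sets was not tested. By enzyme class, and leaving out EPRS1, which joins both classes, 4 of 9 class I and 4 of 9 class II cytosolic genes were called lower beside the same 17.4%, and the 1 called higher, QARS1, is class I.

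In TPM, a transcript abundance scaled for length and library size that allows levels of different genes to be compared per length, cytosolic genes summed to 2386, 1926 and 2200.4 TPM in knockout libraries, against 2876, 2539 and 2708 TPM in vector libraries. Mitochondrial genes summed to 309.9, 249 and 285 TPM in knockout libraries, against 309, 245 and 257 TPM in vector libraries. The cytosolic sums did not overlap and the mitochondrial sums did. Cytosolic over mitochondrial TPM was 7.70, 7.74 and 7.72 in knockout libraries, against 9.32, 10.4 and 10.5 in vector libraries, given as a description with no test.

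For 13 amino acids the members held a cytosolic and a mitochondrial gene whose names differ only in the final 1 or 2. In 9 of these 13 pairs the cytosolic change lay below the mitochondrial one. The median difference over the 13 pairs, cytosolic minus mitochondrial, was -0.17. Phenylalanine, glutamate and proline also had both enzymes but were left out, as their cytosolic genes are named otherwise. FARSA and FARSB changed by -0.51 and -1.15, and FARS2 by 0.24. EPRS1 changed by -0.12, against -0.38 for EARS2 and -0.22 for PARS2. In vector cells the TPM of the cytosolic gene was between 1.49 times (CARS1 over CARS2) and 68.7 times (WARS1 over WARS2) that of its mitochondrial partner. In 5 pairs the cytosolic gene alone was called (AARS1, CARS1, IARS1, VARS1 and WARS1), in 3 the mitochondrial gene alone (HARS2, MARS2 and TARS2), and in 0 pairs were both. Beside this, 35.1% of all tested genes were called in either direction, and the pattern of calls over the pairs was not tested.

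Among the pairs compared, the widest contrast was for valine. VARS1 over VARS2 had a log2 TPM ratio of 0.55, 0.44 and 0.61 in knockout libraries, against 1.51, 1.80 and 1.53 in vector libraries, so that the levels were 1.45 times apart in knockout and 3.05 times apart in vector cells. For isoleucine the IARS1 over IARS2 ratio was 1.32, 1.58 and 1.37 in knockout libraries, against 2.13, 2.47 and 2.44 in vector libraries. Neither ratio overlapped between groups. For tryptophan the ratio of WARS1 over WARS2 averaged 5.37 ± 0.15 in knockout and 6.10 ± 0.28 in vector cells (log2, SD, n = 3 each), with WARS2 at 6.94 ± 0.340 CPM in knockout and 7.19 ± 0.973 CPM in vector cells. AARS2, at -0.01 ± 0.10 (SE), and CARS2, at 0.13 ± 0.17 (SE), had overlapping groups and were not called.

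Methionine ran the other way. The log2 TPM ratio of MARS1 over MARS2 was 4.62, 4.87 and 4.66 in knockout libraries, against 3.52, 4.17 and 4.21 in vector libraries. MARS2 was called at -0.96, and MARS1 stood at -0.19 without a call. Threonine had the same direction with a smaller shift, 3.60 ± 0.06 in knockout and 3.40 ± 0.05 in vector cells (log2 ratio, SD, n = 3 each).

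**Figure D3:**
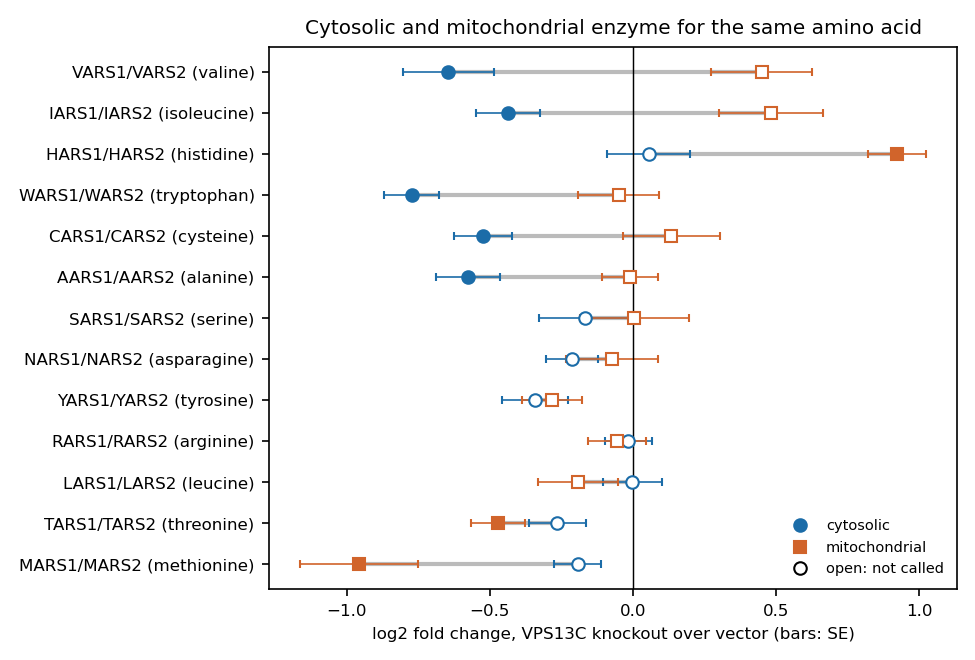
Log2 fold change of knockout over vector (x axis, bars SE) for the cytosolic (circle) and mitochondrial (square) enzyme of the same amino acid; filled symbols have an edgeR adjusted p under 0.05. The circle lies left of the square in 9 of 13 pairs, most widely for valine (difference -1.09), and right of it for methionine (0.76). Phenylalanine, glutamate and proline are not drawn.

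HARS1 and HARS2, the cytosolic and mitochondrial histidyl genes, lie head to head on chromosome 5 and gave unequal responses. Their RefSeq starts are at 140691370 on the minus strand and 140691455 on the plus strand, 84 bases apart, and the interval, printed on the plus strand because both genes start at its ends, is 59.5% G and C.
HARS1-HARS2 interval, chr5:140691371-140691454, plus strand: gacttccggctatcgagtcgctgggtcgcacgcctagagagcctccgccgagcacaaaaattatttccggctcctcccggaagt
HARS1 had 116, 151 and 134 CPM in knockout libraries, against 109, 144 and 133 CPM in vector libraries. These groups overlapped (0.05 ± 0.14 SE, not called), while those of HARS2 did not. Of the 40 tested genes nearest to the pair, 23 were called higher and 3 lower, with a median of 0.72. Over all tested genes, 17.8% were called higher and 17.4% lower. Protocadherin genes made up 22 of them, with a median of 1.25, and the other 18 neighbours had a median of 0.30 with 7 called higher and 2 lower. The proteins of HARS1 and HARS2 are close relatives, and how reads matching both genes were divided is not given in the sources used here.

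AARS1 and KARS1 lie on the long arm of chromosome 16, at chr16:70252298-70289506 and chr16:75627724-75647665. Of the other 283 tested genes of that arm, 147 were called lower and 16 higher, with a median change of -0.50. Over all tested genes, 17.4% were called lower and 17.8% higher. Among the 40 nearest tested genes the median was -0.55 around AARS1 (22 called lower, 0 higher) and -0.45 around KARS1 (20 lower, 5 higher). AARS1, at -0.58, lay close to the median of its neighbours, and 45% of them were below it. KARS1, at -0.79, had 17.5% of its neighbours below it. The neighbourhood of AIMP2 on chromosome 7 had a median of -0.36 (18 lower, 4 higher), with 10% of its genes below AIMP2.

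For FARSB, WARS1, MARS2, QARS1, GARS1, EARS2 and TARS2 the median of the neighbours lay between -0.10 and 0.06. FARSB (chr2:222566899-222656092) lay below each of its 40 neighbours, whose median was 0.05. WARS1 (chr14:100333790-100376327) had 5% of its neighbours below it and a neighbourhood median of 0.004. For MARS2 (chr2:197705369-197708395) these values were 2.5% and -0.10. QARS1 (chr3:49095932-49104757) lay above 95% of its neighbours, whose median was 0.06. Among the other called members, the neighbours of CARS1 had a median of 0.22 (12 called higher, 6 lower), those of EEF1E1 -0.15 (2 higher, 12 lower), those of IARS1 -0.14 (5 higher, 10 lower) and those of VARS1 -0.13 (4 higher, 3 lower). LARS1, which was not called, lay in a stretch with a median of 0.53 and 22 of 40 neighbours called higher. These counts stand beside 17.8% called higher and 17.4% called lower over all tested genes.

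**Figure D4:**
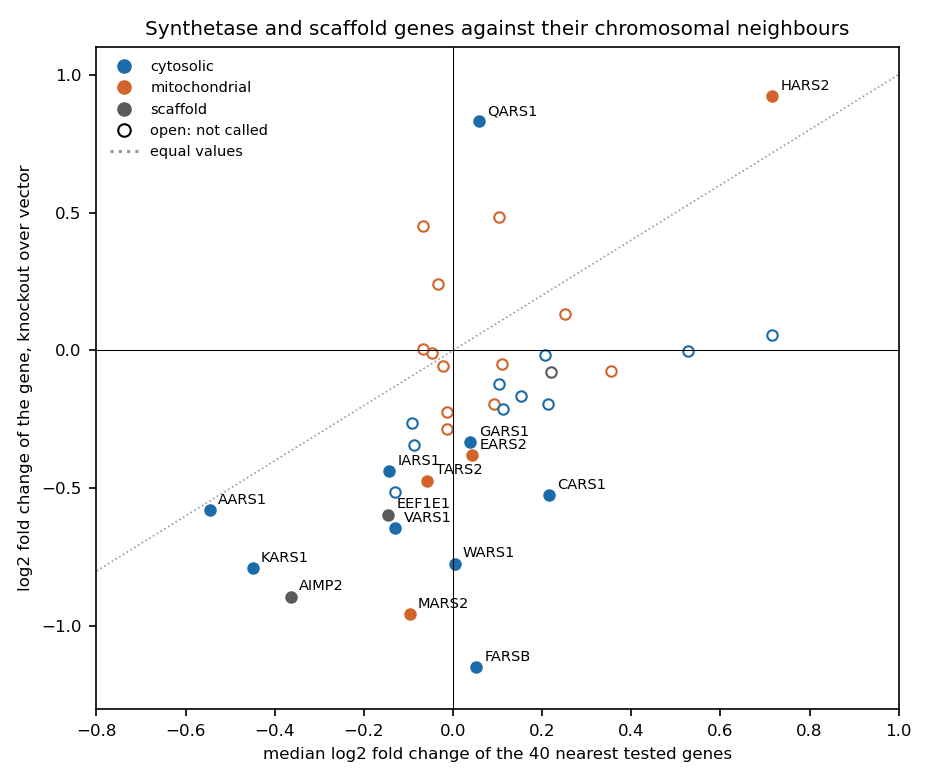
Log2 fold change of each member (y axis) against the median log2 fold change of the 40 nearest tested genes (x axis), knockout over vector; filled points have an edgeR adjusted p under 0.05 and the dotted line marks equal values. AARS1 lies near the line, while FARSB, WARS1, MARS2 and QARS1 lie far from 0 with neighbours near 0. HARS2 and HARS1 differ from the median of the neighbours they share by 0.21 and -0.66.

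Some members overlap another tested gene in their genomic spans, which include introns, so the shared bases need not be in either transcript. With strandedness not given, reads from stretches that both genes transcribe cannot be told apart. AIMP2 shares 1588 bases with EIF2AK1, a kinase of eIF2, which was also called lower (-0.50 ± 0.10 SE). MARS1 shares 65 bases with DDIT3, the stress transcription factor CHOP, which was called lower at -0.86. EARS2 shares 3606 bases with GGA2, which had a change of 0.23 and was not called. FARS2 shares 11017 bases with LYRM4, called lower at -0.56, and the overlaps of YARS1, CARS2 and AIMP1 were with genes that were not called.

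At the level of RefSeq transcripts, 113 of 197 member transcripts were tested and 4 were called, where 2.25% of 40948 tested transcripts were called. Those lower were NM_006303.4 of AIMP2 (-0.80 ± 0.11 SE, edgeR adjusted p = 0.0297) and XM_011510466.2 of FARSB (-1.28 ± 0.14 SE, edgeR adjusted p = 0.0171). The 2 higher were NM_012208.4 of HARS2 (1.04 ± 0.13 SE, edgeR adjusted p = 0.0256) and NM_005051.3 of QARS1 (0.84 ± 0.10 SE, edgeR adjusted p = 0.0246). Each held most of its gene's count: the QARS1 transcript took a mean of 98.7% in knockout and 97.6% in vector libraries, and the FARSB transcript 82.2% in knockout and 89.8% in vector libraries. Estimates for single transcripts are uncertain with reads of 50 bases, 27 member transcripts had an unadjusted edgeR p under 0.05, and the calls fell to 1 without vector replicate 1 and to 0 without any other single library.

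The core TGATGNAA was present in 3.62% of the 35116 RefSeq windows and in 8 of 45 windows of the members (17.8%). The 7 cytosolic genes with it, among them those printed above, all had non-overlapping groups lower in knockout cells (24.0% of all tested genes), and 4 of them were called lower (AARS1, CARS1, GARS1 and IARS1; 17.4% of all tested genes), with a median change of -0.33 and a range from -0.58 to -0.19. The 9 cytosolic genes whose window lacked it had 4 with non-overlapping groups lower in knockout cells, 3 called lower (FARSB, KARS1 and WARS1) and 1 higher (QARS1), with a median of -0.17 and a range from -1.15 to 0.83. Among the cytosolic genes with a window, the largest falls (FARSB, KARS1 and WARS1) were in genes without these letters. The genes with them lay in a narrower range, and the contrast was not tested. A match is a description of the letters and not a bound site, and LARS1, VARS1 and YARS1 had no window. A palindrome of the kind bound by NRF1 (GCGC, any 2 bases, then GCGC, which reads the same on both strands) was in 8.32% of all windows. It was in 9 of the 45 windows, which came from 33 members, so some members had several windows. These 9 windows belonged to 7 genes: AIMP2, FARSB, IARS2, MARS2, PARS2, SARS1 and TARS1. Of these 7 genes 3 were called lower, beside 17.4% of all tested genes.

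**Figure D5:**
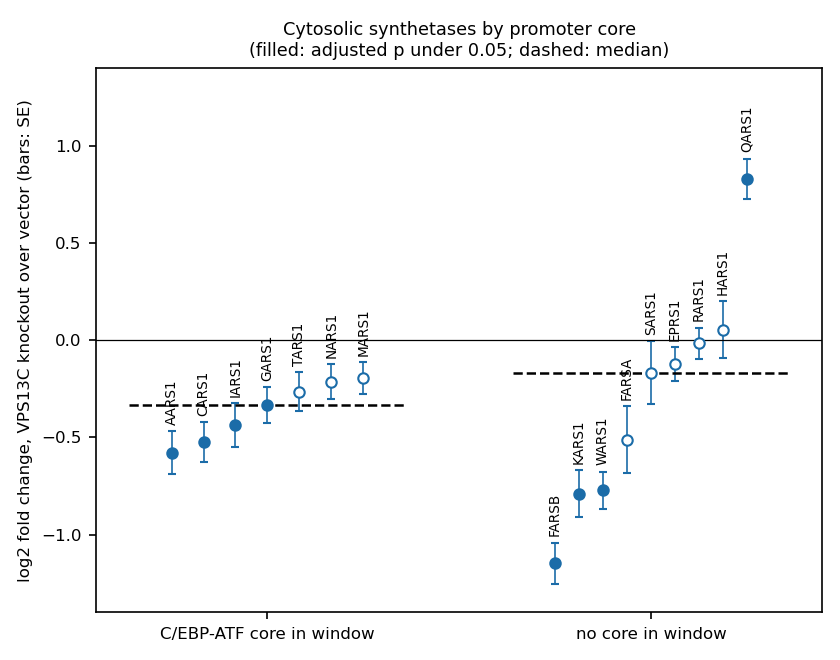
Log2 fold change of knockout over vector (y axis, bars SE) of the cytosolic synthetase genes whose RefSeq window holds the C/EBP-ATF core (left, 7 genes) or lacks it (right, 9 genes); filled points have an edgeR adjusted p under 0.05 and dashed lines are medians. The genes with the core lie between -0.58 and -0.19, and those without it between -1.15 and 0.83.

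ATF4 itself had 277, 359 and 300.3 CPM in knockout libraries, against 321, 401 and 389 CPM in vector libraries. The groups overlapped, and the change of -0.25 ± 0.14 (SE) was not called (edgeR adjusted p = 0.218). Of 35 ATF4 targets and regulators, ATF4 included, 13 were called lower (37.1%, beside 17.4% of all tested genes) and 4 higher (11.4%, beside 17.8%), with a median of -0.27. GDF15, a stress cytokine, was at 51.6 ± 3.78 CPM in knockout and 519 ± 30.7 CPM in vector cells (SD, n = 3 each). PPP1R15A, which recruits the phosphatase of eIF2, averaged 165 ± 7.42 CPM in knockout and 444 ± 38.1 CPM in vector cells, and the transcription factor ATF3 38.2 ± 1.14 CPM in knockout and 83.8 ± 4.42 CPM in vector cells. VLDLR, a lipoprotein receptor, rose to 49.7 ± 2.75 CPM in knockout cells, against 21.1 ± 0.907 CPM in vector cells. Of 13 eIF2 kinases and partners, 5 were called lower (38.5%, beside 17.4% of all tested genes) and 0 higher (beside 17.8%). Among them were EIF2S1, the alpha subunit of eIF2 (-0.45 ± 0.08 SE), EIF2B1, a subunit of its exchange factor (-0.55 ± 0.11 SE), and GCN1, the activator of GCN2 (-0.53 ± 0.10 SE).

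Of 42 genes that make, modify and export tRNA, 22 were called lower (52.4%, beside 17.4% of all tested genes). Another 3 were called higher (7.14%, beside 17.8%), and the median change was -0.51. TRMT10C, a subunit of mitochondrial RNase P, had 11.4, 9.93 and 10.7 CPM in knockout libraries, against 27.6, 26.2 and 25.3 CPM in vector libraries. HSD17B10 (1.02 ± 0.25 SE) and PRORP (0.28 ± 0.09 SE), the other subunits of this enzyme, were called higher. The third gene called higher was THG1L (0.44 ± 0.13 SE). GTPBP3, which modifies the wobble base of mitochondrial tRNAs, fell by 1.04 ± 0.11 (SE), and RPP40, a subunit of nuclear RNase P, fell by 0.87 ± 0.11 (SE), both on the log2 scale. XPO5, an export receptor for small RNAs, fell by 0.73 ± 0.10 (SE) on the same scale. XPOT, the export receptor for tRNA, was not called at -0.24 ± 0.13 (SE; edgeR adjusted p = 0.215). Of 13 other genes of aminoacylation, 1 was called (7.69%, beside 35.1% of all tested genes). It was MTFMT, which formylates the mitochondrial initiator tRNA, called higher at 0.39 ± 0.11 (SE), and 0 were called lower.

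Of 78 mitochondrial ribosomal protein genes, 13 (16.7%) were called lower, a share close to the 17.4% of all tested genes. Called higher were 0, beside 17.8% of all tested genes, and the median change was -0.18. MRPL3 had 83.1, 77.2 and 86.2 CPM in knockout libraries, against 169, 158 and 160.4 CPM in vector libraries, and MRPS23, MRPS22 and MRPS30 fell by 0.95, 0.66 and 0.54 on the log2 scale. Among 12 tested mitochondrial translation factors 2 were called lower, TUFM, the elongation factor that delivers charged tRNA to the mitochondrial ribosome (-0.73 ± 0.15 SE), and GFM1, the translocase (-0.58 ± 0.16 SE). MTRF1, of the release factor family, was called higher at 0.58 ± 0.19 (SE), so 25% of these 12 were called, beside 35.1% of all tested genes. Of 8 cytosolic elongation factor genes, EEF2K, the kinase that inhibits eEF2, averaged 162 ± 5.41 CPM in knockout and 40.6 ± 2.47 CPM in vector cells (SD, n = 3 each). EEF1A2, an isoform of the factor that delivers charged tRNA in the cytosol, averaged 43.1 ± 10.6 CPM in knockout and 179 ± 36.9 CPM in vector cells. These were the 2 that passed the test, in opposite directions (25% of the 8, beside 35.1% of all tested genes).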

How the data were processed

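RNA-seq of 6 libraries (3 VPS13C knockout, 3 vector) was used, with single-end reads of 50 bases from a DNBSEQ instrument, per the labels' protocols. Per the submitters' processing notes the build was hg38. The sources used here do not give the aligner, counter or strand setting. The authors deposited an expected count (estimated count) per gene and transcript, which was rounded and used for all tests. FPKM values as deposited by the authors were used for 1 alternative and for gene lengths, and TPM values as deposited by the authors for levels between genes. A normalized signal column from the authors entered no test, nor did their group means.

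The low-count filter was filterByExpr at a minimum of 10, the scaling was TMM, and the test was the robust quasi-likelihood F-test of edgeR 4.0.16 in R 4.3.3 with Benjamini-Hochberg adjustment. CPM used TMM-scaled library sizes, with a prior count of 2 in the fit. Each SE was obtained by dividing the log2 fold change by the root of its F. The 6 libraries limit precision. The pipeline was tested on simulated data. Coordinates and promoter windows are from RefSeq (GRCh38.p14). The 38 members and all gene lists were chosen with earlier results of these data known, so lists are described by counts and medians. Named were every called member, members whose groups did not overlap, partners of called members and called transcripts. ATF4, VPS13C and up to 4 called genes of each list by smallest p were also named. DDIT3 and the other overlapping genes, the remaining members, HSD17B10, PRORP, THG1L and XPOT were named after their values were seen. Alternatives were RLE factors, library size only, a filter at a total of 1 in place of filterByExpr, DESeq2 1.42.0, limma 3.58.1 on log2(FPKM + 1), the replicate number as a block, correction of each library for its loess trend on length (span 0.4), and leaving out each library. Figures were drawn with matplotlib 3.10.9.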

Additional observations from a re-analysis of the deposited data

How the results depend on the processing

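Over 13 alternatives no called member changed direction. Of the 15 called members, 11 were called in each alternative (AARS1, CARS1, FARSB, KARS1, QARS1, WARS1, HARS2, MARS2, TARS2, AIMP2 and EEF1E1), 4 lost the call in at least 1 (GARS1, IARS1, VARS1 and EARS2), 8 uncalled members gained one (FARSA, MARS1, NARS1, TARS1, YARS1, IARS2, VARS2 and YARS2), and 15 were called in none. EARS2 also lost its call with library size only (adjusted p = 0.0617) and with limma on FPKM (0.0964). Members called numbered 19 with DESeq2, which called 38.5% of all genes, and 11 to 17 when single libraries were left out.

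The replicate numbers were not shown to pair the libraries: deviations from the group means of same-numbered libraries correlated at 0.65, 0.68 and -0.22, and knockout replicate 3 correlated best with vector replicate 1 (0.39). With the replicate block, 23 members were called, 4 of them higher, with 13 cytosolic lower, 3 mitochondrial higher and 1 transcript, beside 57.9% of all genes. With the length trend removed, 13 cytosolic were lower and 2 mitochondrial higher, beside 47.1% of all genes. DESeq2 called 2 mitochondrial genes higher. Leaving out single libraries gave 5 to 10 cytosolic lower, 1 to 2 mitochondrial higher, a mitochondrial median of -0.11 (without knockout replicate 3) to -0.031 (without vector replicate 1) and 0 to 1 transcripts, beside 21.8% to 36.3% of all genes. The causes were not tested. Each of these shares of all genes counts calls in either direction. Libraries differed in the slope of counts on gene length, from -0.14 to 0.11 log2 units per doubling in knockout and -0.10 to 0.14 in vector libraries. The lowest count of a member in a library was 87, that of MARS2 in knockout replicate 2.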
